A study of Mus musculus with 12 samples.

Results

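The sterol and fatty acid synthesis genes are 36 genes chosen by symbol from a count table of 23282 rows, in mouse splenic B cells. Each of the 36 symbols stood on 1 row. Enough counts for a test were present for 35 of them, against 11857 rows tested in all; the exception was Fads2, a fatty acid desaturase with 14 counts over all libraries. The members fall into 6 roles: 7 genes of the mevalonate arm, 11 of the path from squalene to cholesterol, 5 of SREBP control, 3 of fatty acid synthesis, 6 of desaturation and elongation, and 4 of sterol transport, storage and efflux.

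The series measured the effect of a TLR9 ligand and of a compound that its title calls an oxidative phosphorylation inhibitor, in 4 groups of 3 libraries (n = 3 throughout). All mice were wild-type C57BL/6 animals aged 7 weeks in the sample labels, although lupus-prone is the word of the series description; all spleens were taken on day 4. Intraperitoneal injections of class B CpG-ODN 1826, a short synthetic DNA rich in unmethylated CpG, were given to the ODN group on days 1 and 3 (50 µg each). Mice of the IM156 group had IM156 injected likewise on days 0 and 2 (30 mg/kg), the ODN+IM156 group received both, and the control group is labelled as given none, with no vehicle stated. The labels give 3 experimental replicates per condition and not the number of animals behind each, so p-values measure the spread between these libraries, which may be technical.

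Cells make cholesterol from acetyl-CoA through mevalonate, isoprenoid units and squalene, and fatty acids from acetyl-CoA through malonyl-CoA. Both paths are driven by the SREBP transcription factors, which SCAP carries out of the endoplasmic reticulum when sterols are low and which INSIG proteins hold back when sterols are high. Dividing lymphocytes need both products for new membrane, and LXR receptors, which sense oxidised sterols, raise the efflux pumps ABCA1 and ABCG1.

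Promoters are shown for 4 members. Pmvk and Abca1 passed the test in at least 1 comparison. Hmgcs1, the HMG-CoA synthase, was the one member whose window held the letters of a sterol regulatory element. Mvk had the window with the most CCAAT boxes (5). Each promoter is the 250 bases before the gene's first listed start in RefSeq (build GRCm38.p6), read 5′ to 3′ on the gene's own strand. Capitals mark every match, on either strand, to 4 short motifs: TCACNCCAC (the sterol regulatory element, bound by SREBP), CCAAT (bound by NF-Y, a known partner of SREBP), GGGCGG (the GC box, bound by Sp1) and CACGTG (an E-box).
Pmvk, chr3:89454291-89454540, plus strand: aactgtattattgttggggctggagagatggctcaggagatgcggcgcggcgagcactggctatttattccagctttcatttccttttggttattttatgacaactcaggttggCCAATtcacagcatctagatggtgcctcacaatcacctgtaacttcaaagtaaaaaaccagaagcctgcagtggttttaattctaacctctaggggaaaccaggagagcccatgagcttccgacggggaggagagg
Abca1, chr4:53159896-53160145, minus strand: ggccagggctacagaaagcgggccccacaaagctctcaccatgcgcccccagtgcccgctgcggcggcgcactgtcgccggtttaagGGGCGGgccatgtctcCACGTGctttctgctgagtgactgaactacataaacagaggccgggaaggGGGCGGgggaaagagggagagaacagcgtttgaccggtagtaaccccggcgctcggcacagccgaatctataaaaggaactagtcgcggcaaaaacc
Hmgcs1, chr13:119690101-119690350, plus strand: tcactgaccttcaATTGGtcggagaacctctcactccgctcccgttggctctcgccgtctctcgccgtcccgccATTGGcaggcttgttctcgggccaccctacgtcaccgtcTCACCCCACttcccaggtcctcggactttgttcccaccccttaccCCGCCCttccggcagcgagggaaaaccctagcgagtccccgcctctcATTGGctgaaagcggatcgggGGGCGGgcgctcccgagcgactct
Mvk, chr5:114444019-114444268, plus strand: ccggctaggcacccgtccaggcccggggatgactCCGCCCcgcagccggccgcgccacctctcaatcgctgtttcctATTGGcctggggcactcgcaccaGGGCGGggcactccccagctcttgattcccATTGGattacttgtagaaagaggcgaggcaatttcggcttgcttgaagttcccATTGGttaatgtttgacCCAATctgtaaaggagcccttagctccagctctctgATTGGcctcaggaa

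Promoters were found in the RefSeq table for 28 of the 36 members; Fdps, Fdft1, Sqle, Scd1, Scd2, Fads1, Stard4 and Abcg1 had no entry. A CCAAT box stood in 21 of the 28 (75%), against 37.49% of the 27025 genes in the table and 40.88% of the 8998 tested genes with an entry. Among the 15 enzymes from mevalonate to cholesterol with an entry, 14 held one (93.33%), and the exception was Acat2. The GC box stood in 22 of the 28 (78.57%) and in 14 of the 15 enzymes, with a share of 62.74% among tested genes. In these windows Pmvk had a CCAAT box at 136 bases before the start and no GC box, whereas Mvk, the enzyme of the step before, had 5 CCAAT boxes and 2 GC boxes. Before an alternative start of Pmvk none of the 4 motifs was found. Abca1 held 2 GC boxes and an E-box at 147 bases before the start. The sterol regulatory letters were present in 1 of the 28 members, Hmgcs1, against 1.16% of tested genes, and the E-box in 7 of 28 (25%), against 9.96%. Matches to different motifs did not overlap in any of the 36 member windows, which include alternative starts of some genes. The letters are a description of the sequence and show neither binding nor its absence.

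Total counts per library lay between 9650775 and 11532525. Levels are counts scaled to library size (CPM), and a gene was called when its adjusted p from edgeR's quasi-likelihood test was below 0.05. All 10 B cell markers, among them Ms4a1 and Cd79b, were detected in every group and summed to 8522 to 10370 CPM per library, and the T cell markers to 25.32 to 49.54. Markers of some other cells differed between control and ODN libraries with no overlap, platelet markers (given below) among them. Erythroid markers summed to 509.8 to 654.7 CPM in control and 84.99 to 201.3 in ODN, and neutrophil markers to 5.809 to 9.541 and 23.87 to 89.15. NK cell markers summed to 4.446 to 5.069 and 16.04 to 25.33, and dendritic cell markers to 48.82 to 59.35 and 66.11 to 68.35. Only 3 neutrophil and 4 NK cell markers had enough counts for a test. Libraries of the ODN group stood apart in 2 respects: replicate 3 held 1 count of Xist, against 923.9 to 1320 CPM in the other 11 libraries, so that the ODN libraries are not repeats of 1 sample, and replicate 2 had 1.456% of its counts in the ribosomal RNA row Rn45s, against 4.779% to 9.626% elsewhere. Transcripts of 20 proliferation genes summed to 504.1 to 709.9 CPM in control and to 2863, 1463 and 969 in ODN replicates 1, 2 and 3.

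ODN against control asks what the TLR9 ligand and its injections did: 2 of the 35 tested members rose and 0 fell. They were Scd2, a stearoyl-CoA desaturase that makes monounsaturated fatty acids, and Pmvk, phosphomevalonate kinase, which acts on the product of mevalonate kinase. Over all genes the test called 10.6%, with 7.34% higher and 3.25% lower, so the members' share of 2 in 35 was not above that background. The median log2 fold change of the 35 was 0.01, against -0.01 for all tested genes, and it was -0.07, 0.08 and 0.08 without ODN replicates 1, 2 and 3 in turn. At an unadjusted p below 0.05 there were 6 members, with a background of 25.2%.

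Scd2 was at 39.95, 49.18 and 50.74 CPM in control replicates 1 to 3 and at 104.2, 76.51 and 85.25 in ODN. With IM156 alone it was at 52.06, 51.51 and 44.78, and with both agents at 62.93, 72.19 and 67.62. All 3 ODN libraries lay above every other library, and the 3 libraries given both agents lay between those of ODN and those of the groups without ODN, with no overlap on either side. The log2 fold change was 0.93 for ODN against control (SE 0.122, edgeR adjusted p = 9.407e-05). On leaving out 1 library it ranged from 0.79 to 1.02, with 0.94 without ODN replicate 3 and 1.02 without ODN replicate 2. For ODN+IM156 against control it was 0.53 (SE 0.123, edgeR adjusted p = 0.0295), a call that was lost (adjusted p up to 0.137) without control replicate 1, control replicate 2 or any 1 of the ODN+IM156 libraries. 2 further contrasts of Scd2 did not pass: ODN+IM156 against ODN at -0.39 (95% interval -0.64 to -0.14, edgeR adjusted p = 0.108) and ODN+IM156 against IM156 at 0.45 (0.20 to 0.71, edgeR adjusted p = 0.0557). The former was called with no filter on low counts (adjusted p = 0.0228). The latter was called by DESeq2 (adjusted p = 0.0263), with no filter, in a fit of only those 2 groups, and without control replicate 1 or any 1 of the ODN libraries.

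Scd2 lies on chromosome 19 (GRCm38, 44293674 to 44306864, plus strand) and has a paralogue there, Scd1 (44394455 to 44407879, minus strand), which makes the same kind of product. No other gene's exon overlaps the last 500 bases of either. Scd1 was at 531, 585.4 and 519.7 CPM in control and at 678.2, 523.2 and 610.1 in ODN, ranges that overlap. Its log2 fold change was 0.15 (95% interval -0.05 to 0.34), and with both agents against control it was -0.06 (-0.25 to 0.14). These intervals lie below the lower bounds for Scd2 in the same comparisons, 0.67 and 0.28. The pair of genes was singled out after their values were seen.

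Pmvk was at 18.19, 17.78 and 19.56 CPM in control, at 34.06, 28.08 and 29.66 in ODN, at 21.94, 25.43 and 21.92 with IM156 and at 24.06, 27.59 and 29.95 with both. Every library of the 3 treated groups was above every control library, and those given both agents overlapped ODN and IM156. ODN raised it by a log2 fold change of 0.72 (SE 0.133, edgeR adjusted p = 0.0014). On leaving out 1 library the change ranged from 0.64 to 0.78, with 0.74 without ODN replicate 3 and 0.78 without ODN replicate 2. With both agents the log2 fold change was 0.56 (SE 0.133, edgeR adjusted p = 0.0377). That call was lost in 7 of the 12 fits without 1 library (adjusted p up to 0.218): each control library, IM156 replicates 2 and 3, and ODN+IM156 replicates 2 and 3. For IM156 alone the change of 0.32 (95% interval 0.04 to 0.60) had an edgeR adjusted p of 0.999. Pmvk lies on chromosome 3 at 89454541 to 89469013.

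**Figure D1:**
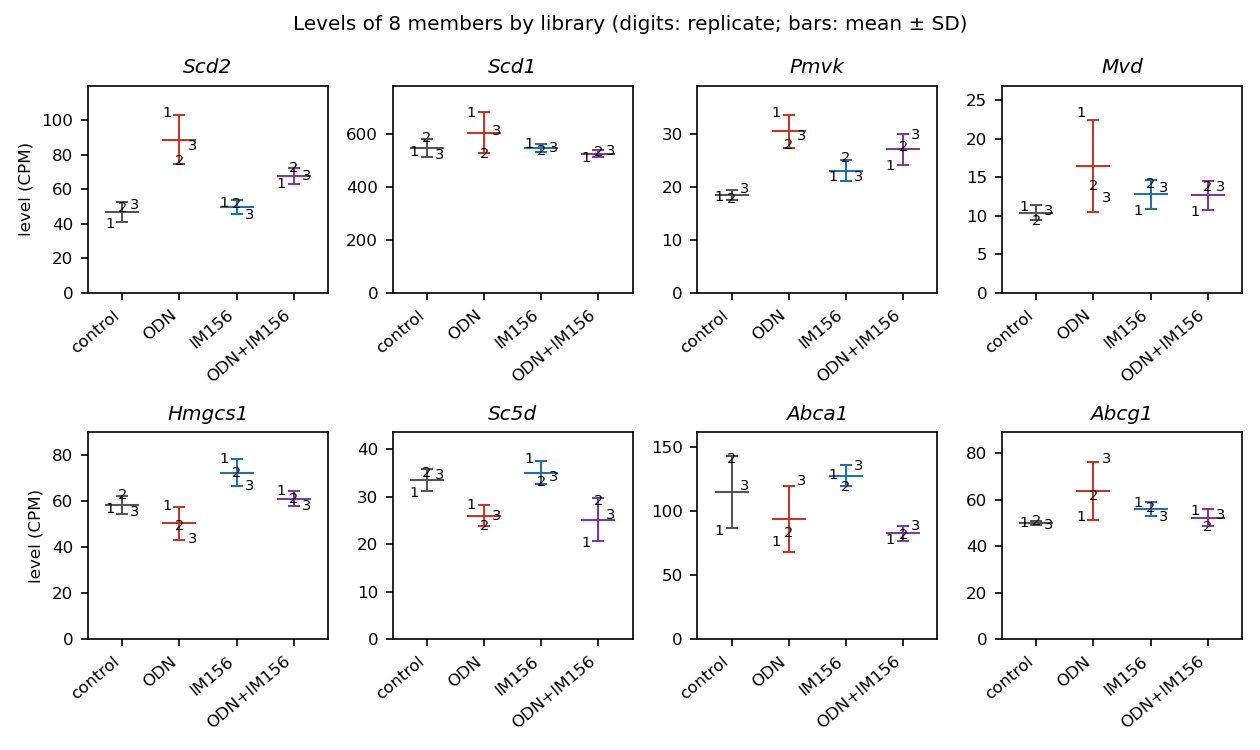
Levels of 8 members in CPM (vertical axes, starting at 0) for the 4 groups; digits give the replicate number of each library and bars the mean ± SD of 3. Scd2 in the 3 ODN libraries (76.51 to 104.2 CPM) lies above all others, Scd1 overlaps between control and ODN, and Pmvk is above every control library in all treated groups.

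The remaining mevalonate genes were not called in ODN against control, and their values were spread across the ODN libraries. Mvd, the mevalonate diphosphate decarboxylase, was at 9.255 to 11.13 CPM in control and at 23.33, 13.91 and 12.25 in ODN (log2 fold change 0.67, SE 0.221, edgeR adjusted p = 0.0592). Acat2, an acetoacetyl-CoA thiolase whose reads may be shared with its near-identical neighbour Acat3, was at 68.48 to 76.39 in control and at 98.42, 95.66 and 81.13 in ODN (0.33, SE 0.105, edgeR adjusted p = 0.051). Neither overlapped control. Without ODN replicate 3 both were called. Hmgcs1, the HMG-CoA synthase, was at 56.35, 62.7 and 55.29 CPM in control and at 57.91, 49.21 and 43.44 in ODN, overlapping, with a log2 fold change of -0.21 (95% interval -0.45 to 0.02). Mvk, Idi1 and Fdps, which act before and after Pmvk and Mvd in the same chain, had overlapping libraries and log2 fold changes of 0.46, -0.15 and 0.12.

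On the path from squalene to cholesterol, 0 of 11 genes were called with ODN and the median log2 fold change was -0.13. Sqle, the squalene epoxidase and a slow step of the path, was at 13.72, 14.97 and 15.88 CPM in control, 19.06, 12.62 and 9.281 in ODN, 17.25, 15.89 and 16.12 with IM156 and 16.51, 11.2 and 13.74 with both. The ODN libraries lay on both sides of control. Replicate 1 was also the highest and replicate 3 the lowest ODN library for Fdft1, the squalene synthase (22.08, 16.66 and 9.568 CPM), for Cyp51, the lanosterol demethylase (48.74, 39.07 and 29.56), and for Msmo1, the methylsterol monooxygenase (44.58, 39.16 and 26.6). Reads of Fdft1, Cyp51 and Srebf1 can mix with exons of Ctsb, Akap9 and Rai1 on the opposite strand at their 3′ ends, since the strand rule of the counting is not given in the sources used here. Fdps shares its 3′ end with Gm43738 on its own strand. Sc5d, the lathosterol desaturase, was the one member whose ODN libraries all lay below control, at 28.23, 23.87 and 26.02 against 30.81, 35.02 and 34.66 CPM (-0.37, SE 0.134, edgeR adjusted p = 0.0904). Dhcr7, which makes cholesterol in the last step of one branch, was at 5.898 to 10.14 CPM in control and 3.958 to 8.324 in ODN. Lss, Tm7sf2, Nsdhl, Hsd17b7 and Ebp, which close the sterol ring and then trim and reshape it, had log2 fold changes from -0.41 for Lss to 0.18 for Ebp. Tm7sf2 had between 5 and 25 counts per library.

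The summed level of the 11 squalene to cholesterol genes was 336.3, 262.3 and 225.4 CPM in ODN replicates 1, 2 and 3, a range that takes in all control libraries (263 to 295.3). The mevalonate arm summed to 253.7, 214.9 and 183.9 CPM in the same libraries and to 183.3 to 191.9 in control. The proliferation sum was likewise highest in replicate 1 and lowest in replicate 3 (2863 and 969), and the part of proliferating cells in the sterol values was not tested. In B cells taken as a bulk sample, more cells with a transcript and more transcript per cell cannot be told apart. With both agents the mevalonate arm summed to 198.6 to 212.2 CPM and with IM156 alone to 211.9 to 223, above all control libraries in each case. Acat2 and Hmgcs1 made up most of this sum (means of 73.03 and 58.11 CPM of 187 in control). With IM156 alone no gene of the arm was called, and 6 of its 7 log2 fold changes were positive.

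**Figure D2:**
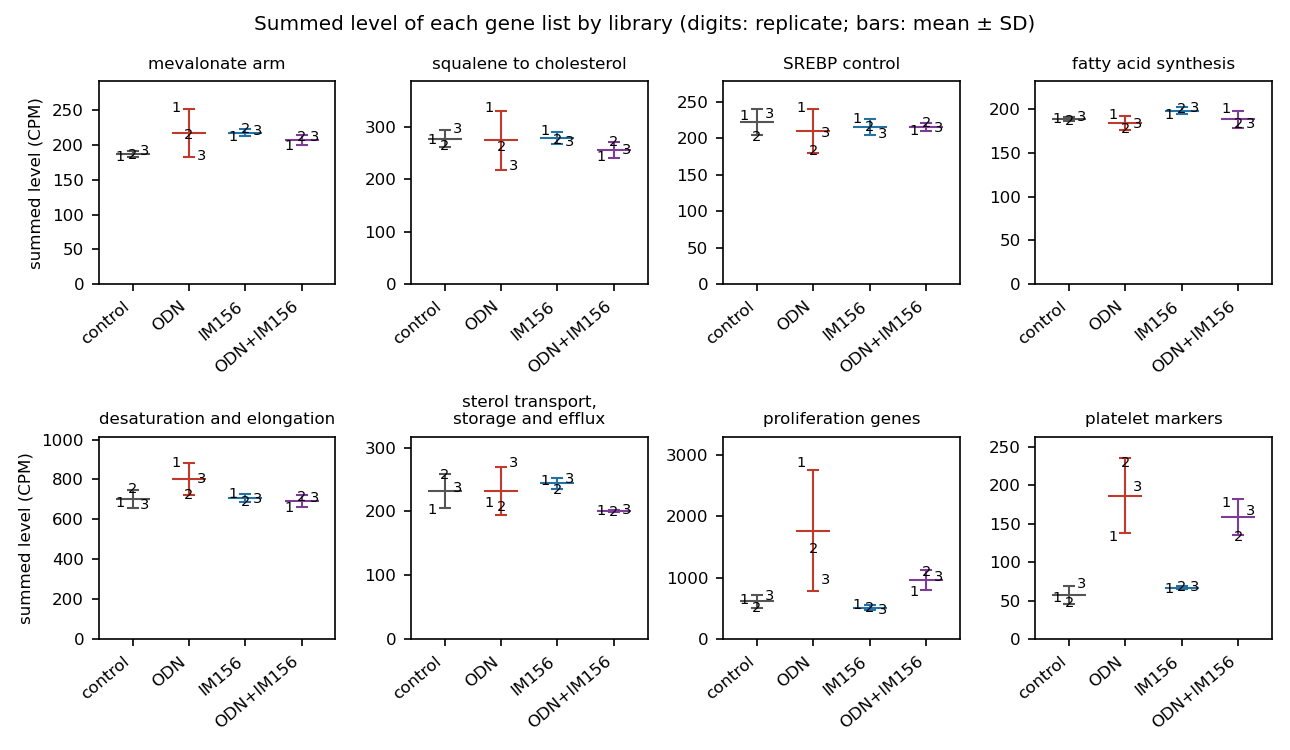
Summed CPM (vertical axes, starting at 0) of the 6 role groups of members, of the 20 proliferation genes and of the 10 platelet markers in each library, by group; digits give the replicate number and bars the mean ± SD of 3. ODN replicate 1 is highest and replicate 3 lowest within ODN for the mevalonate arm, for squalene to cholesterol and for the proliferation genes.

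Genes that control SREBP were not called in any comparison. Srebf1, which encodes SREBP-1, was at 32.8, 31.4 and 33.4 CPM in control, 38.64, 33.75 and 29.95 in ODN, 42.98, 32.72 and 37.53 with IM156 and 36.32, 32.66 and 36.69 with both. Srebf2, which encodes the sterol-directed SREBP-2, was at 119, 93.28 and 121.8 in control, 122, 72.56 and 94.05 in ODN, 106.8, 102.6 and 81.03 with IM156 and 106.1, 113.1 and 102.4 with both. Each gene's libraries overlapped between all groups, and the log2 fold changes with ODN were 0.07 (95% interval -0.20 to 0.33) and -0.21 (-0.52 to 0.10). Insig1, a retention protein that is itself an SREBP target, was at 14.41, 14.43 and 12.2 in control, 14.69, 11.08 and 6.984 in ODN, 9.175, 12.53 and 15.86 with IM156 and 11.51, 8.878 and 10.37 with both. All 3 libraries given both agents were below control (-0.41, SE 0.239, edgeR adjusted p = 0.508). Scap, the escort, and Insig2, a second retention protein, had log2 fold changes with ODN of 0.01 and 0.24.

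None of the 3 genes of fatty acid synthesis was called in any of the 6 comparisons fitted over all 12 libraries. Acly, which splits citrate to cytosolic acetyl-CoA, was at 125.6, 119.9 and 119.4 CPM in control, 136.5, 113.1 and 118.1 in ODN, 117.2, 121 and 124.6 with IM156 and 134.3, 120.2 and 113.8 with both. Its log2 fold change with ODN was 0.01, with a 95% interval of -0.18 to 0.20. Acaca, the acetyl-CoA carboxylase of the first committed step, was at 17.69, 18.6 and 23.33 in control, 18.02, 18.89 and 15.02 in ODN, 23.74, 21.22 and 23.2 with IM156 and 17.45, 15.54 and 17.1 with both. Its libraries with both agents lay below those with IM156 and below control, at -0.44 against IM156 (SE 0.148, edgeR adjusted p = 0.131), a difference called in a fit of only those 2 groups (adjusted p = 0.0437). Fasn, the fatty acid synthase, was at 45.72, 48.18 and 48.22 in control, 38.54, 44.74 and 50.42 in ODN, 52.36, 57.59 and 53.56 with IM156 and 48.02, 47.77 and 51.67 with both. The IM156 libraries of Fasn were above those of control and of both agents (0.20 against control, SE 0.106, edgeR adjusted p = 0.999).

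Among the other desaturases and elongases, Fads1, which desaturates polyunsaturated chains, was at 1.27 to 1.646 CPM in control and 2.147 to 3.062 in ODN (log2 fold change 0.91, 95% interval -0.25 to 2.07), with 14 to 32 counts per library. It had 0 counts in IM156 replicate 1, and 11 and 10 in replicates 2 and 3. Elovl5 and Elovl6, which lengthen polyunsaturated and saturated chains, had log2 fold changes with ODN of -0.01 and -0.29. Of the 14 counts of Fads2, 12 were in ODN replicate 1 and 2 in IM156 replicate 1.

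**Figure D3:**
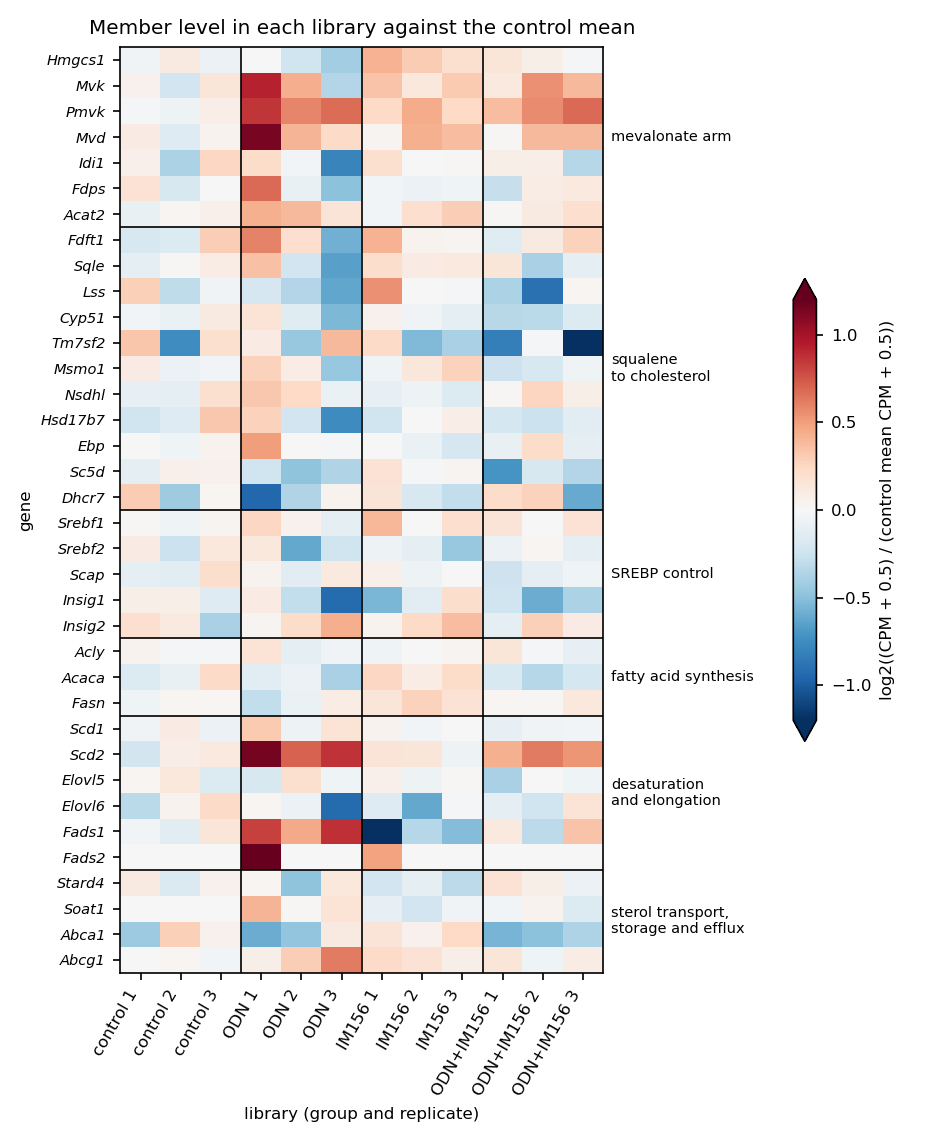
Level of each of the 36 members (rows, by role) in each of the 12 libraries (columns) as log2 of the ratio to the control mean, with a pseudocount of 0.5 CPM; colours saturate at 1.2 in either direction, which 3 values pass. Scd2 and Pmvk are red in all 3 ODN libraries, while many sterol genes go from red in ODN replicate 1 to blue in ODN replicate 3.

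Of the genes for transport, storage and efflux, Abca1 was the one called in a comparison. Abca1, the pump that hands cholesterol to lipid-poor apolipoprotein, was at 84.68, 140.1 and 119.2 CPM in control, 75.93, 82.44 and 123.2 in ODN, 127.7, 119 and 135.2 with IM156 and 77.64, 81.17 and 88.44 with both. The libraries given both agents lay below all those given IM156 alone and overlapped control and ODN. ODN+IM156 against IM156 gave a log2 fold change of -0.63 (SE 0.163, edgeR adjusted p = 0.0474). The call was lost on leaving out control replicate 3, any 1 of the IM156 libraries or any 1 of the ODN+IM156 libraries, with adjusted p from 0.0592 to 0.194 and fold changes from -0.68 to -0.58. Abca1 is on chromosome 4 at 53030787 to 53159895 on the minus strand.

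Against control, Abca1 had a log2 fold change of -0.29 with ODN (95% interval -0.63 to 0.05) and -0.48 with both agents (-0.82 to -0.14, edgeR adjusted p = 0.186). The latter was called with no filter on low counts, in a fit of only the 2 groups (adjusted p = 0.0398) and without control replicate 1 (-0.65, adjusted p = 0.0414). Without ODN replicate 3 the change with ODN was -0.54 and was called. Monocytes and macrophages also express Abca1, and their 14 markers, 12 of them tested, summed to 52.2 to 93.95 CPM with IM156 and 92.27 to 149 with both; Mertk was at 0 counts with IM156 and 2 with both. Their part in the Abca1 result was not tested. Abcg1, which exports sterol to lipoprotein particles, was at 48.9 to 50.9 CPM in control and at 52.49, 61.4 and 77.31 in ODN (0.35, SE 0.12, edgeR adjusted p = 0.0695), so that no ODN library was as low as control. Over the ODN replicates Abcg1 and Abca1 were both highest in replicate 3. Soat1, which esterifies cholesterol for storage, was at 52.58 to 53.16 in control and 53.33 to 70.2 in ODN (0.20, 95% interval -0.03 to 0.43), and Stard4, a carrier of sterol between membranes, at 12.79 to 15.7 and 10.22 to 15.88.

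In ODN against control 7 of the 35 members had all ODN libraries above control (Pmvk, Mvd, Acat2, Scd2, Fads1, Soat1 and Abcg1) and 1 had all below (Sc5d). Over all tested genes these shares were 13.2% and 11.3%. Platelet markers, 9 of 10 of them tested, summed to 47.46 to 71.07 CPM in control, 132.7 to 228.8 in ODN, 64.83 to 67.81 with IM156 and 132.6 to 177.6 with both, with none at 0 in any group. With both agents neutrophil markers summed to 19.45 to 25.35 CPM, NK cell markers to 10.46 to 16.32 and erythroid markers to 56.44 to 109.5; with IM156 alone these sums were 2.693 to 6.397, 3.241 to 5.235 and 79.41 to 433.6. Dendritic cell markers summed to 65.53 to 103.1 CPM with both agents and to 37.1 to 55.75 with IM156 alone. Scd2 and the platelet, neutrophil, NK cell and dendritic cell sums were higher in the groups given ODN than in those without it. Between those groups the dendritic cell sum had a mean of 84.72 CPM with both agents and 67.42 in ODN, the reverse order of Scd2. Within ODN, replicate 1 was highest for Scd2 and for the neutrophil sum (89.15 CPM). It was lowest for the platelet (132.7) and NK cell (16.04) sums. The part of these transcripts in the Scd2 values was not tested.

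IM156 against control asks what the compound did without the ligand. None of the 35 members was called by edgeR or by DESeq2, and edgeR called 0% of all genes. At an unadjusted p below 0.05 there were 2 members, Hmgcs1 and Pmvk, against 3.7% of all genes. Hmgcs1 was at 77.89, 72.08 and 66.36 CPM with IM156, above all control libraries (55.29 to 62.7), with a log2 fold change of 0.31 (95% interval 0.08 to 0.54, edgeR adjusted p = 0.999). With both agents it was at 64.15, 60.88 and 57.52, below all IM156 libraries and overlapping control. Members with all IM156 libraries above control were 5 (Hmgcs1, Pmvk, Sqle, Fasn and Abcg1), with a background of 5.16%, and 2 lay below (Fads1 and Soat1), with a background of 5.25%. The median over the 7 mevalonate genes was 0.29, over all 35 members 0.07 and over all genes 0.00. The members' median was 0.01 without IM156 replicate 1, 0.02 without control replicate 1 and 0.11 without control replicate 3.

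ODN+IM156 against ODN asks what the compound did in the presence of the ligand. None of the 35 members was called by edgeR and none of 29 by DESeq2, with 0.0675% of all genes called by edgeR (0.0506% higher and 0.0169% lower), while 5 members had an unadjusted p below 0.05 (background 16.2%). Over all genes edgeR called 8 here, 75% of them higher, but 794 without ODN replicate 3, with 33.63% higher, and DESeq2 called 398, with 36.93% higher. The 5 members were Hmgcs1 (log2 fold change 0.28), Scd1 (-0.20), Scd2 (-0.39), Soat1 (-0.25) and Abcg1 (-0.29). The members had 24 negative and 11 positive values, a median of -0.09 against -0.01 for all genes. Without ODN replicate 1 the median was 0.03, the opposite sign. Scd2 and Fads1 were the members with all libraries below those of ODN (background 10%), and none had all above (background 9.07%).

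ODN+IM156 against control called 2 members higher, Scd2 and Pmvk, and 0 lower, against 1.59% of all genes (1.25% higher and 0.337% lower). The median over members was -0.02, and 4 had an unadjusted p below 0.05 (background 12.9%). Libraries lay all below control in 4 members, Cyp51, Sc5d, Insig1 and Acaca (background 9.12%), and all above in Pmvk and Scd2 (background 10.2%). ODN+IM156 against IM156, the effect of the ligand in mice given the compound, called Abca1 lower and 0 members higher, against 2.47% of all genes (1.74% higher and 0.734% lower). DESeq2 added Scd2 higher and Sc5d lower, and 6 members had an unadjusted p below 0.05 (background 14.4%). The ODN+IM156 libraries lay all below IM156 in 6 members (Hmgcs1, Cyp51, Sc5d, Acaca, Fasn and Abca1, background 11.8%) and all above in 4 (Nsdhl, Scd2, Fads1 and Stard4, background 12.8%). Sc5d was at 20.38, 29.17 and 26.14 CPM with both agents against 37.9, 33.19 and 34.29 with IM156 (-0.48, SE 0.134, edgeR adjusted p = 0.0674). These comparisons share the ODN+IM156 libraries with each other and the control libraries with those above.

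**Figure D4:**
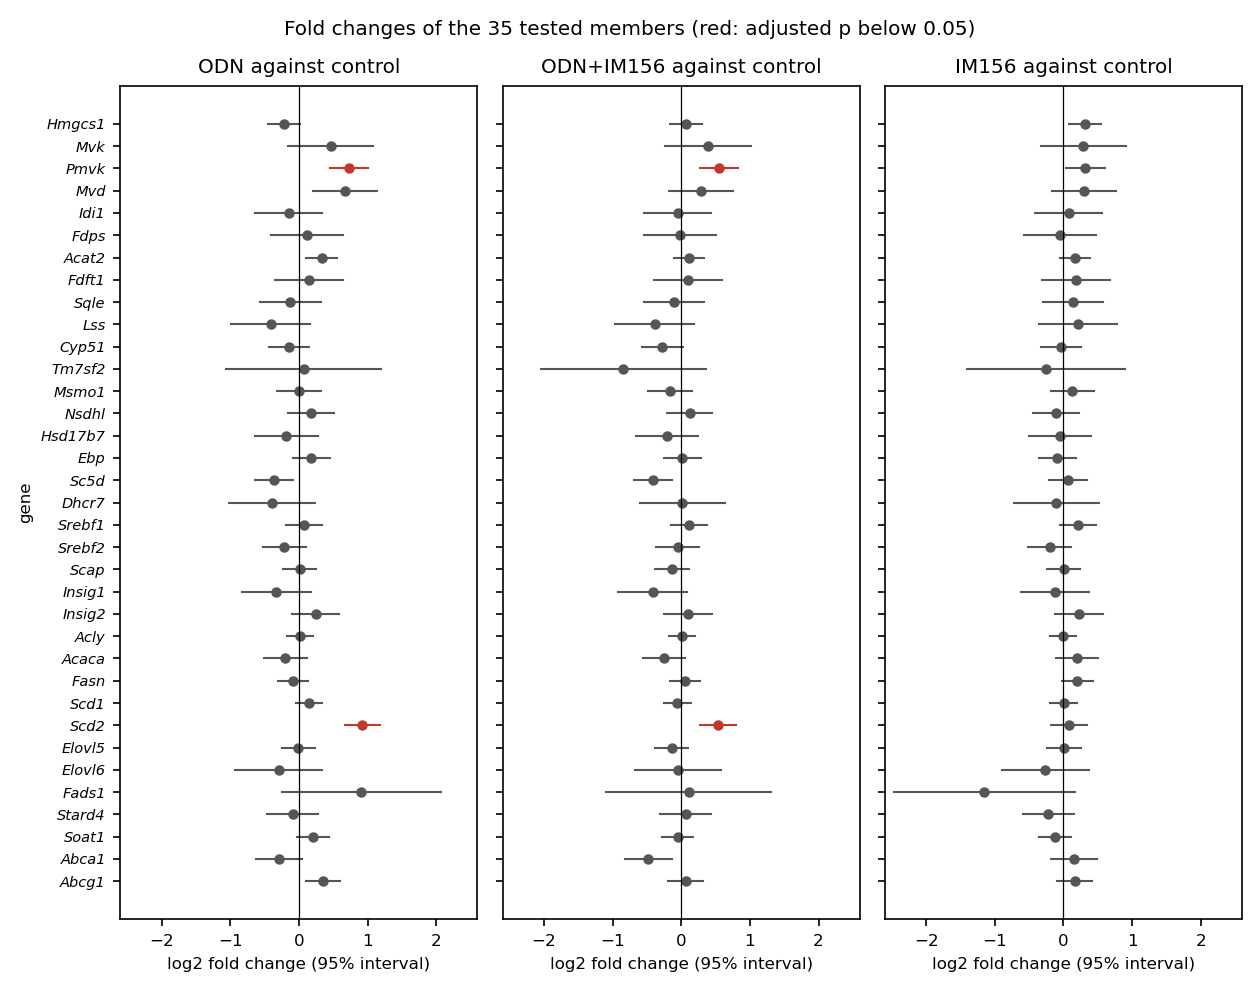
Log2 fold change with its 95% interval (horizontal axes) for the 35 tested members (rows) in 3 comparisons with control; red marks an edgeR adjusted p below 0.05. Scd2 and Pmvk are red with ODN and with both agents, and no member is with IM156 alone.

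The interaction asks whether IM156 acted differently in mice given ODN; a negative value means a lower change under ODN. edgeR called it for 0 of the 35 members and DESeq2 for 0 of the 11 to which it gave an adjusted p, with 0% of all genes called by edgeR and 186 genes by DESeq2. Without ODN replicate 3 edgeR called 260 genes and again 0 members. At an unadjusted p below 0.05 there were 5 members (background 12.3%), all negative: Pmvk at -0.49, Mvd at -0.68, Acat2 at -0.38, Scd2 at -0.47 (95% interval -0.84 to -0.11, edgeR adjusted p = 0.268) and Abcg1 at -0.45. The members' median was -0.13, against -0.01 for all genes, and it was -0.01 without ODN replicate 1.

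Other genes of these pathways were read from a list of 77 partners, of which 76 symbols were in the table and 58 were tested. With ODN, 3 of the 58 rose and 1 fell, against 7.34% and 3.25% of all genes. Npc2, which takes cholesterol out of lysosomes, was at 180.9, 160.5 and 143.2 CPM in control and 332.2, 276.3 and 258.4 in ODN (0.84, SE 0.108, edgeR adjusted p = 7.684e-05). Acsl3, an acyl-CoA synthetase that feeds lipid droplets, fell from 43.73, 34.93 and 35.53 to 24.16, 21.73 and 23.54 (-0.72, SE 0.118, edgeR adjusted p = 0.00065). Its paralogue Acsl5 rose (0.33, edgeR adjusted p = 0.0251), as did Fabp5, a fatty acid carrier (1.01, edgeR adjusted p = 0.0376). The Acsl5 call was lost without control replicate 2, control replicate 3 or ODN replicate 1, and the Fabp5 call without any 1 control library, ODN replicate 1, ODN replicate 2 or ODN+IM156 replicate 3.

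With both agents against control Npc2 was higher (0.46, edgeR adjusted p = 0.0334) and Acsl3 lower (-0.54, edgeR adjusted p = 0.0203), the 2 partners called. Leaving out control replicate 2 or 3, IM156 replicate 2, or ODN+IM156 replicate 2 or 3 ended the Npc2 call. For Acsl3 control replicate 1 or any 1 ODN+IM156 library did. Against IM156 the partner called was Fabp5, higher with both agents (1.18, edgeR adjusted p = 0.0489), a call lost in 10 of the 12 fits without 1 library. In the other 3 comparisons edgeR called 0 of 58 partners. At an unadjusted p below 0.05 there was 1 for IM156 against control (background 3.7%), 5 for ODN+IM156 against ODN (16.2%) and 3 for the interaction (12.3%), and DESeq2 called 0, 2 (Npc2 and Lbr, a sterol reductase, both lower) and 1 (Npc2).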

How the data were processed

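RNA from splenic B cells was isolated with TRIzol and made into libraries with the Lexogen QuantSeq 3′ kit, per the labels' protocols, so reads come from transcript 3′ ends. The authors deposited raw read counts per gene symbol; Bowtie2, bedtools, edgeR and GRCm38 (mm10) are named in the submitters' processing notes, and versions, annotation and strand rule are not given in the sources used here. A further 28 deposited columns of other values were not used. The counts were tested with edgeR 4.0.16 in R 4.3.3: filterByExpr defaults (11857 genes), TMM scaling, 1 mean per group over all 12 libraries (8 residual degrees of freedom) and Benjamini-Hochberg adjustment over all tested genes. The fit was run on simulated counts with known changes in ODN. Each gene was drawn separately there, so the run does not show how the fit handles shifts shared by many genes of a library. Its changes were larger than those fitted for most members and were set only in genes above a minimum level. How often smaller changes, or changes in genes of low level, would be called was therefore not tested. Chi-square per degree of freedom between replicates was 5.144 to 68.07, more than counting noise in every pair. The Rn45s row was included. The highest values, 65.41 and 68.07, were the pairs with ODN replicate 2, which had 1.456% of its counts in Rn45s. The part of that row in these values was not tested. Intervals are 95%. Alternatives were DESeq2 1.42.0, other scalings and filters, pairwise fits, a replicate block and leaving out each library. Members and gene lists were chosen with earlier results of these data known; the rule gave library values for each called member and for a list of 10, other members by range or as examples, and partners where called. Gene positions are from GENCODE on GRCm38. Some listed genes are not reported here.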

Additional observations from a re-analysis of the deposited data

How the results depend on the processing

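The Scd2 and Pmvk calls for ODN against control were kept in 19 of 19 alternatives, with log2 fold changes of 0.79 to 1.02 and 0.64 to 0.78. The count of members called in that comparison was 4 with DESeq2 (Acat2 and Mvd added), 5 with no filter on low counts (Abcg1 also) and 2 to 5 on leaving out 1 library. Without ODN replicate 3 it was 5, with Abca1 lower (-0.54). With library totals alone the share of all called genes that were higher went from 69.32% to 49.12%, and Sc5d was called lower. For ODN+IM156 against ODN the count was 1 (Scd2) with no filter and 0 otherwise.

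For ODN+IM156 against control the 2 calls became 3 with no filter or only the 2 groups compared (Abca1 lower added), 1 with library totals alone, 0 with the replicate block, and 0 to 2 on leaving out 1 library. For ODN+IM156 against IM156 the 1 call became 3 with DESeq2 or no filter (Scd2 higher and Sc5d lower added), 2 with library totals alone, 4 with only the 2 groups compared, and 0 to 3 on leaving out 1 library. Among 1806 values of named genes that were not called at first, 26 were called under an alternative and 66 changed sign without a call; no called value changed sign. The causes were not tested.

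Replicate numbers did not pair the libraries: same-numbered libraries of different groups had correlations of -0.10 to 0.079, and 2 of 12 matched their own number best. The block left 2 members called for ODN against control and ended the Fabp5 call there (adjusted p = 0.0503). The fit of only the 2 groups ended the Fabp5 and Acsl5 calls, and library totals alone that of Acsl5. With a median of 258 counts per tested gene and library, the spread between 3 libraries limits most values, and counting error limits Tm7sf2, Fads1 and Fads2.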

Other observations

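The balance of the paralogous desaturases Scd2 and Scd1 was compared within each library, a ratio chosen after the values were seen. It is unaffected by the scaling of libraries. Scd2 had 7.524, 8.4 and 9.762 counts per 100 Scd1 counts in control, 15.36, 14.62 and 13.97 in ODN, 9.252, 9.663 and 8.197 with IM156, and 12.34, 13.59 and 12.66 with both. The ODN libraries, the libraries given both agents and the libraries without ODN did not overlap. The means were 8.562 ± 1.13 in control, 14.65 ± 0.693 in ODN, 9.037 ± 0.757 with IM156 and 12.86 ± 0.649 with both (SD, n = 3). An exact two-sided permutation test gave p = 0.1 for each of the 4 comparisons that differ in ODN or set both agents against ODN, the smallest p that 3 against 3 allows, and p = 0.7 for IM156 against control.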
